A study of Mus musculus and Acomys cahirinus with 2 samples.

Results

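Guca2a-positive basal keratinocytes were the barcodes of the Mus musculus ear that met a rule for resting basal cells carrying the guanylin transcript. A barcode counted as one if it held at least 3000 unique molecular identifiers (UMIs, each standing for 1 captured RNA molecule), at least 200 genes, at most 20% of UMIs on mitochondrial genes, at least 2 UMIs of Guca2a and at least 2 of Col17a1. It also had to hold under 1% of its UMIs on Krt10 and at most 1 UMI in all of the division genes Mki67, Top2a, Birc5 and Ube2c. Of 7632 Mus barcodes past the limits on UMIs, genes and mitochondrial share, and of 12329 in both libraries, 2317 met these conditions. They were set beside 508 barcodes that passed the same limits with no UMI of Guca2a, called Guca2a-zero cells here. A further 443 had 1 UMI and belong to neither group. The cells were chosen by the measured counts of these genes, so the levels of Guca2a, Col17a1, Krt10 and the 4 division genes are descriptions of the choice and not findings.

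The series holds 2 droplet libraries, 1 from the ear skin of adult Mus musculus and 1 from that of adult spiny mice (Acomys cahirinus), and the labels give day 0 for both. The design text calls the ears injured, and no strain, sex or number of animals is given. Both groups of cells come from the same Mus library, so cells are not replicates: no p-value is given, and each 95% interval covers counting error only. A gene is called higher or lower where its counts per 1000000 UMIs (CPM, from UMIs summed over the cells of a group) differed by at least 1.5-fold, with at least 20 CPM and 20 UMIs in the higher group. Guca2a-positive cells had a median of 10951 UMIs and 2678 genes, against 7140 UMIs and 2110 genes in Guca2a-zero cells. The libraries shared 34 cell barcodes by sequence, among them 12 of the Guca2a-positive cells.

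Basal keratinocytes are the bottom layer of the epidermis. They hold to the basement membrane through collagen XVII (Col17a1) and integrins, make keratins 5 and 14, divide, and give rise to the suprabasal cells that switch to keratins 1 and 10. Guanylin, the peptide made from Guca2a, is known from the intestine, where it activates the guanylate cyclase C receptor (Gucy2c), raises cyclic GMP and drives salt and water secretion.

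Guca2a lies on chr4:119637704-119639471 of the mouse build mm10 (GRCm38) on the plus strand, with up to 3 exons in GENCODE vM21. The bases before the start of the gene are shown for Guca2a and for the named higher genes whose window also holds the AP-1 motif TGACTCA on either strand, AP-1 being the Fos and Jun family of transcription factors. Of the 18 genes made up of Guca2a, its fellow markers and the named higher genes, 17 had at least 1 window of 250 bases in the RefSeq promoter table. Of these 17 genes, 3 held the motif. Serpinb2, Lrrc8d and Il33 had 2 windows each, and a gene was counted if any of its windows matched. The shares over all windows count each window, so the 2 measures are unlike. Of all 32851 windows in that table, 4.46% held it. Another 3 motifs were searched on both strands. The GATA factor motif AGATAA was found in 2 of the 17 genes and 9.99% of all windows, with 2 matches in the window of Guca2a. The TATA box motif TATAAA was found in 6 of the genes and 12.4% of all windows, and the TEAD factor motif GGAATG in 1 and 12.6%. The sequences are from RefSeq, GRCm38.p6, plus strand, 5′ to 3′, with the AP-1 motif in capitals. The Guca2a window ends 28 bases early, at the GENCODE start, so that it holds no transcribed base.
Guca2a chr4:119637482-119637703 (+): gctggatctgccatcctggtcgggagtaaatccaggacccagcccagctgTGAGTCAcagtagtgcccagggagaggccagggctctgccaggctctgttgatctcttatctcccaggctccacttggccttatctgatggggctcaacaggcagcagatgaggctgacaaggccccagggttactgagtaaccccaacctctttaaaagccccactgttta
Mmp3 chr9:7445572-7445821 (+): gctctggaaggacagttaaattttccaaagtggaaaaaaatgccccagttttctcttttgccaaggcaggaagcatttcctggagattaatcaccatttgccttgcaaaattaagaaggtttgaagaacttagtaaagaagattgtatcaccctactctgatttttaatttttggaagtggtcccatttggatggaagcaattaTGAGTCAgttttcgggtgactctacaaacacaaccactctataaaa
Chit1 chr1:134110992-134111241 (+): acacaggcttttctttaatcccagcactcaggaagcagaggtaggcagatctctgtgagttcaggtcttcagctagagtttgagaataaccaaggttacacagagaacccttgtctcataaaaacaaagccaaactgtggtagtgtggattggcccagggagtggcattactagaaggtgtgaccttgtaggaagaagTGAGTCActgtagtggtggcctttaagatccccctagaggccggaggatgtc
The AP-1 motif lies 200 bases before the RefSeq start of Guca2a, 46 bases before that of Mmp3 and 52 bases before that of Chit1. A match is a run of letters in these windows, not evidence of binding.

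Both groups held RNA of all 8 basal keratinocyte markers, at unlike levels. Col17a1, among the 8, was required in both groups by the rule. Krt14 and Itga3 were higher in Guca2a-positive cells, while Krt15 was lower, at 3814 CPM against 7057 CPM in Guca2a-zero cells. Itga3 was the least abundant of the 8, at 25.9 and 14.1 CPM. Guca2a-positive cells had 27791 CPM of Krt14, 5723 CPM of Krt5, 190.1 CPM of Trp63 (the master transcription factor of stratified epithelia), 145 CPM of Itga6 and 126 CPM of Itgb4, the integrin pair of the hemidesmosome. Guca2a-zero cells had 16234 CPM of Krt14, 3972 of Krt5, 186 of Trp63, 106 of Itga6 and 113 of Itgb4. Krt1, an early differentiation keratin, stood at 313 CPM in Guca2a-positive cells and 224 CPM in Guca2a-zero cells. Of the 8 suprabasal markers, Lor and Sbsn were lower in Guca2a-positive cells and 0 were higher. Lor stood at 551 CPM in Guca2a-positive and 2126 CPM in Guca2a-zero cells, and Sbsn at 369 and 938 CPM. The summed levels of the 8, which include Krt10 of the rule, were 18916 CPM in Guca2a-positive and 19749 CPM in Guca2a-zero cells. These differences did not hold within clusters 1, 2 and 5, which are introduced below. There Lor stood at 312 CPM in Guca2a-positive and 310 CPM in Guca2a-zero cells, and Sbsn at 309 and 338 CPM. Krt1 stood at 316 and 355 CPM, a ratio of 0.890 (0.816 to 0.971), and the 8 summed to 18499 and 16883 CPM.

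Markers of several other cell types were low in the Guca2a-positive cells. The touch-sensing Merkel cells were represented by 0.261 CPM over 7 markers, with no UMI of Atoh1, Isl1 or Sox2. The 7 melanocyte markers summed to 3.80 CPM, 7 blood endothelium markers to 16.2 CPM and 7 fibroblast markers to 31.5 CPM. The 8 markers of myeloid and Langerhans cells summed to 85.1 CPM, of which Cd74 made up 59.1 CPM. The 7 sebocyte markers summed to 170.8 CPM in Guca2a-positive cells and 348 CPM in Guca2a-zero cells.

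The Guca2a-zero cells held more RNA of the hair follicle. The 8 upper hair follicle markers summed to 1117 CPM in Guca2a-positive cells, against 5050 CPM in Guca2a-zero cells, and 8 markers of follicle stem cells and outer root sheath to 324 CPM, against 936 CPM. The 7 fibroblast markers summed to 31.5 CPM in Guca2a-positive and 179.9 CPM in Guca2a-zero cells. A clustering of all 7632 barcodes made without Guca2a placed 39.1% of the Guca2a-positive cells in cluster 1 (led by Rspo3 and Cxcl14), 38.7% in cluster 2 (Mmp3, Slc2a5 and Krt14) and 10.1% in cluster 5 (Rspo3, Igfbp3 and Tslp). Of the Guca2a-zero cells, 27.8% lay in cluster 1 and 4.53% in cluster 2, while 26.6% lay in cluster 9 (Lhx2, Shisa2 and Lgr5) and 24.6% in cluster 3 (Stra6, Ccl27a and Sostdc1). Each comparison was repeated among the 2039 Guca2a-positive and 183 Guca2a-zero cells of clusters 1, 2 and 5. There the upper follicle markers summed to 604 CPM in Guca2a-positive and 619 CPM in Guca2a-zero cells, and the stem cell markers to 249 and 301 CPM. Median depth in those clusters was 10951 UMIs in Guca2a-positive and 8755 UMIs in Guca2a-zero cells.

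At the measured depth, most resting basal barcodes held at least 2 UMIs of Guca2a, a share that depends on depth and describes the rule's own gene. Of 3268 resting basal barcodes, 70.9% (exact interval 69.3 to 72.5%) had at least 2 UMIs, and 84.5% had at least 1. When every cell was thinned to 3000 UMIs, 35.8% kept at least 2 and 61.5% at least 1. Among the Guca2a-positive cells the count ranged from 2 to 119 UMIs with a median of 6, and the level from 70.8 to 5974 CPM with a median of 518 CPM. Summed over all of them, the level was 659 CPM.

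Free RNA in the droplets carried Guca2a as well. Barcodes of 1 to 10 UMIs, too few for a cell, had 262 CPM of Guca2a. Cluster 14, whose 141 cells were endothelium-like and should lack the gene, had 123 CPM, and 21.3% (14.8 to 29.0%) of its cells had a UMI at 3000 UMIs, where resting basal cells reached 61.5%. Median depths were 4476 UMIs in cluster 14 and 10158 UMIs in resting basal cells. Without thinning, 13.5% of cluster 14 had 2 UMIs or more. The 375 members with exactly 2 UMIs had 197 CPM of Guca2a and 105 CPM of Mmp3, and the 443 cells with 1 UMI just outside the rule had 113 CPM of Guca2a and 123 CPM of Mmp3. These Guca2a levels follow from the count and the depth, and the part of free RNA in the members with 2 UMIs was not tested.

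Among clusters of at least 100 barcodes, Guca2a was most frequent in the 3 basal-like clusters, which were picked because they hold most of the Guca2a-positive cells. A UMI at 3000 UMIs was found in 77.5% of cluster 2, 62.6% of cluster 5 and 61.7% of cluster 1, and in 65.3% of the smaller basal-like cluster 17 (72 cells). It was found in 53.8% of cluster 4 (Krt1 and Mt4), 26.5% of cluster 6 (Mt4 and Endou) and 15.8% of cluster 7 (Tesc and Alox12e), 3 suprabasal-like clusters. Cluster 9, with the follicle genes Lhx2 and Lgr5, stood at 19.2%. The shares in clusters 7 and 9 are below that of the endothelium-like cluster 14, as are the 15.8% of cluster 11 and 10.5% of cluster 13, and none of these 4 is taken as expression.

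**Figure D1:**
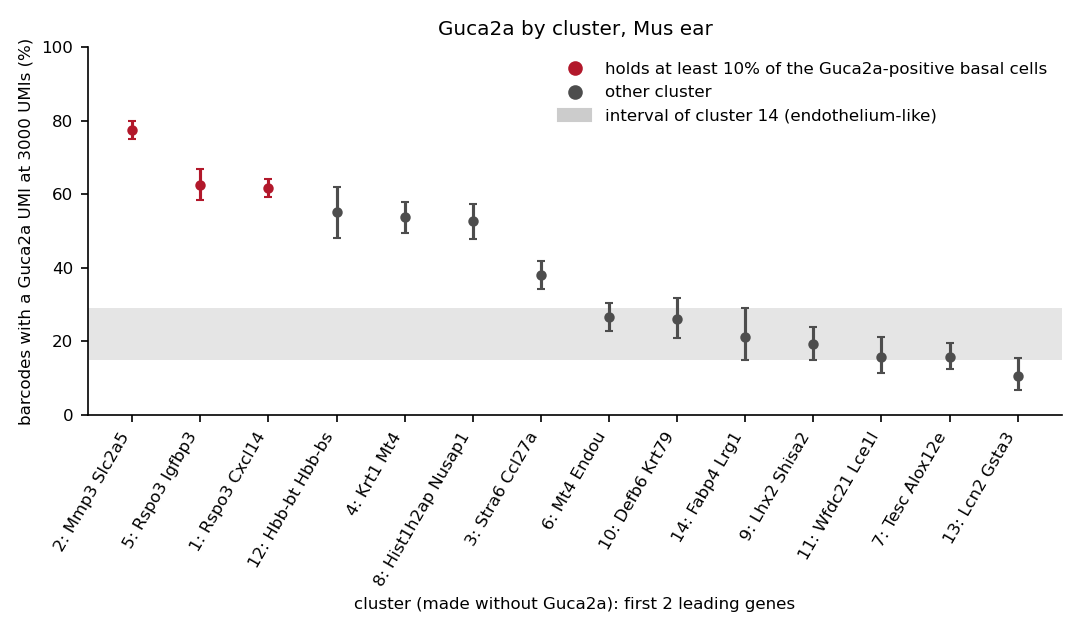
Share of barcodes with at least 1 Guca2a UMI after thinning to 3000 UMIs (vertical axis, percent) in each Mus cluster of at least 100 barcodes, with exact 95% intervals. The 3 clusters in red, with 61.7 to 77.5%, each hold at least 10% of the Guca2a-positive basal cells, and the grey band is the interval of the endothelium-like cluster 14.

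Of 4931 genes at the minimum level, 108 (2.19%) were higher and 366 (7.42%) lower in Guca2a-positive than in Guca2a-zero cells. Within clusters 1, 2 and 5, of 4678 genes, 81 (1.73%) were higher and 65 (1.39%) lower. The second count is fragile, since 21 and 17 genes were past the fold when cells with 1 Guca2a UMI joined the comparison cells. Median log2 ratios over all genes were -0.03 and 0.00.

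The matrix protease Mmp3 (stromelysin 1) had the highest ratio by its interval. It stood at 318 CPM in Guca2a-positive cells, against 63.8 CPM in Guca2a-zero cells, a ratio of 4.99 (4.39 to 5.68). In clusters 1, 2 and 5 it stood at 339 and 102 CPM, a ratio of 3.32. Cluster 2 is itself led by Mmp3 and holds few Guca2a-zero cells. Within cluster 1 alone, 907 Guca2a-positive cells had 104 CPM and 141 Guca2a-zero cells 69.5 CPM, a ratio of 1.498 (1.19 to 1.90). Of the list of 24 metalloproteinases and inhibitors, 7 were at level, of which Mmp3 was higher and Timp2 and Timp3 lower. Within the 3 clusters, of 6 at level, Mmp3 was higher and Adamts1 and Adam17 lower. Over all genes, 2.19% were higher and 7.42% lower, and within the clusters 1.73% and 1.39%.

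Of the 6 proteins on the growth factor list that bind insulin-like growth factors, 4 were higher, Igfbp4 was lower and Igfbp5 was below the minimum level. Igfbp3 stood at 251 CPM in Guca2a-positive and 76.0 CPM in Guca2a-zero cells, a ratio of 3.30 (2.94 to 3.73), and at 235 against 139 CPM within cluster 1 alone, a ratio of 1.69 (1.44 to 1.99). Igfbp6 stood at 64.4 and 27.1 CPM, a ratio of 2.38, but at 32.0 and 28.0 CPM within cluster 1, where the interval of 0.796 to 1.69 includes 1. Igfbp2 had a ratio of 1.63 over all cells and 2.55 within the 3 clusters, where it stood at 150.5 CPM in Guca2a-positive and 59.0 CPM in Guca2a-zero cells, but 1.54 (1.17 to 2.05) within cluster 1. Igfbp7 was higher at 397 and 214 CPM, but its ratio within the 3 clusters was 1.22. Igfbp4 stood at 9.69 CPM in Guca2a-positive and 51.03 CPM in Guca2a-zero cells, a ratio of 0.19, and at 6.22 and 7.05 CPM within the 3 clusters, below the minimum level. The receptor Igf1r ran the other way, at 17.5 CPM in Guca2a-positive and 33.3 CPM in Guca2a-zero cells, and at 16.7 and 30.1 CPM within the 3 clusters. Of the 31 EGF, FGF and IGF receptors, ligands, binding proteins and feedback genes on the list, 12 were at level, 4 higher and 4 lower. Within the 3 clusters, of 10 at level, 3 were higher and 2 lower. The shares over all genes were 2.19% higher and 7.42% lower over all cells, and 1.73% and 1.39% within the clusters.

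Among the other markers given for these cells, the differences were smaller inside the basal clusters. Ngfr, the low-affinity neurotrophin receptor, stood at 55.2 CPM in Guca2a-positive and 25.5 CPM in Guca2a-zero cells, a ratio of 2.16. Within the 3 clusters it stood at 58.9 and 49.4 CPM, a ratio of 1.19 (0.947 to 1.52). Slc2a5, the fructose transporter GLUT5, stood at 65.4 and 30.7 CPM over all cells, a ratio of 2.13, and had a ratio of 1.24 (0.994 to 1.56) within the clusters. Serpinb2, an inhibitor of plasminogen activators, stood at 562 and 276 CPM, a ratio of 2.04, and had a ratio of 1.21 (1.12 to 1.30) within them. None of these 3 passed 1.5-fold there.

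Several single genes had a ratio of at least 1.5 in both comparisons, of which Gadd45a and Lrrc8d also passed it when cells with 1 Guca2a UMI joined the comparison cells of the clusters. Gadd45a, a stress and growth arrest gene, stood at 34.3 CPM in Guca2a-positive and 12.5 CPM in Guca2a-zero cells, and at 36.1 and 18.6 CPM within the 3 clusters. Lrrc8d, a subunit of volume-regulated anion channels, stood at 34.0 and 13.5 CPM, and within the clusters at 36.1 and 16.7 CPM. Wnt4, a Wnt ligand, stood at 64.8 and 29.9 CPM over all cells and 66.5 and 37.8 CPM within the clusters. Mt4, the metallothionein of stratified epithelia, stood at 456 and 232 CPM and at 471 and 290.4 CPM within the clusters. Pla2g4a, which frees arachidonic acid for prostaglandin synthesis, stood at 49.9 and 22.9 CPM and at 51.4 and 30.8 CPM. Eif4e3, a cap-binding protein, had ratios of 2.72 and 1.52. Dnajb4, an HSP40 chaperone, had ratios of 1.65 and 1.67. With the 1-UMI cells joined, the log2 ratios within the clusters were 0.11 for Dnajb4, 0.42 for Mt4 and Eif4e3, 0.49 for Wnt4 and 0.53 for Pla2g4a, all under 1.5-fold. Among cells of 8000 to 12000 UMIs they were 0.29 for Mt4 and 0.38 for Eif4e3. Within cluster 1 alone, Gadd45a had a ratio of 1.99 (1.25 to 3.34), Lrrc8d of 2.02 (1.18 to 3.76), Wnt4 of 1.70 (1.24 to 2.38) and Pla2g4a of 1.65 (1.11 to 2.57), while Mt4 had 1.36 and Eif4e3 1.34.

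A second set was higher over all resting basal cells and under 1.5-fold within the basal clusters. Il1r2, the decoy receptor of interleukin 1, stood at 135 CPM in Guca2a-positive and 62.7 CPM in Guca2a-zero cells, and at 145 and 128 CPM within the 3 clusters. The alarmin Il33 stood at 259.7 and 129.7 CPM, and within the clusters at 274 and 237 CPM. Chit1, a chitinase, had ratios of 2.07 and 1.30 (1.14 to 1.49), and the Wnt ligand Wnt3 of 2.03 and 1.003. Dmpk, a serine/threonine kinase, had 2.45 and 1.48 (1.08 to 2.06), just under the fold. The surface proteins Ly6a (Sca-1) and Thy1 had 1.77 and 1.07, and 1.68 and 0.944. The cornified envelope genes Lce1d and Lce1a1 had ratios of 3.05 and 2.67 over all cells, but the 23 cells with the most UMIs of each gene held 54.9% and 63.3% of the UMIs of the 2317 cells. They belong to a family of near-identical genes, so their counts are uncertain, and their direction turned when Guca2a was counted after thinning to 5000 UMIs, at log2 ratios of -1.93 and -2.54.

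A few genes stood out more within the clusters than outside them. S100a4, a calcium-binding protein linked to cell motility, stood at 254 CPM in Guca2a-positive and 128 CPM in Guca2a-zero cells of the 3 clusters, a ratio of 1.98, against 1.14 over all cells. Lypd3, a differentiation-linked surface protein, had ratios of 1.82 and 1.16. Fam213a stood at 253 and 132 CPM within the clusters, a ratio of 1.92, and had 1.56 over all cells. Galnt1, Ube2m, Sdf2l1, Tuba1c, Tppp3 and Tuba4a had ratios of 1.54 to 2.34 within the clusters. Within cluster 1 alone S100a4 had 1.55 (1.29 to 1.89), Galnt1 2.46, Ube2m 1.94 and Sdf2l1 1.84. Fam213a at 1.45, Lypd3 and Tuba1c at 1.32, Tppp3 at 1.25 (0.926 to 1.72) and Tuba4a at 1.20 were under 1.5. With cells of 1 Guca2a UMI among the comparison cells of the clusters, the log2 ratios of Sdf2l1, Tppp3 and Tuba4a were 0.32, 0.40 and 0.56, also under 1.5-fold. Among cells of 8000 to 12000 UMIs, those of Tppp3, Tuba1c and Tuba4a were 0.50, 0.51 and 0.34.

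**Figure D2:**
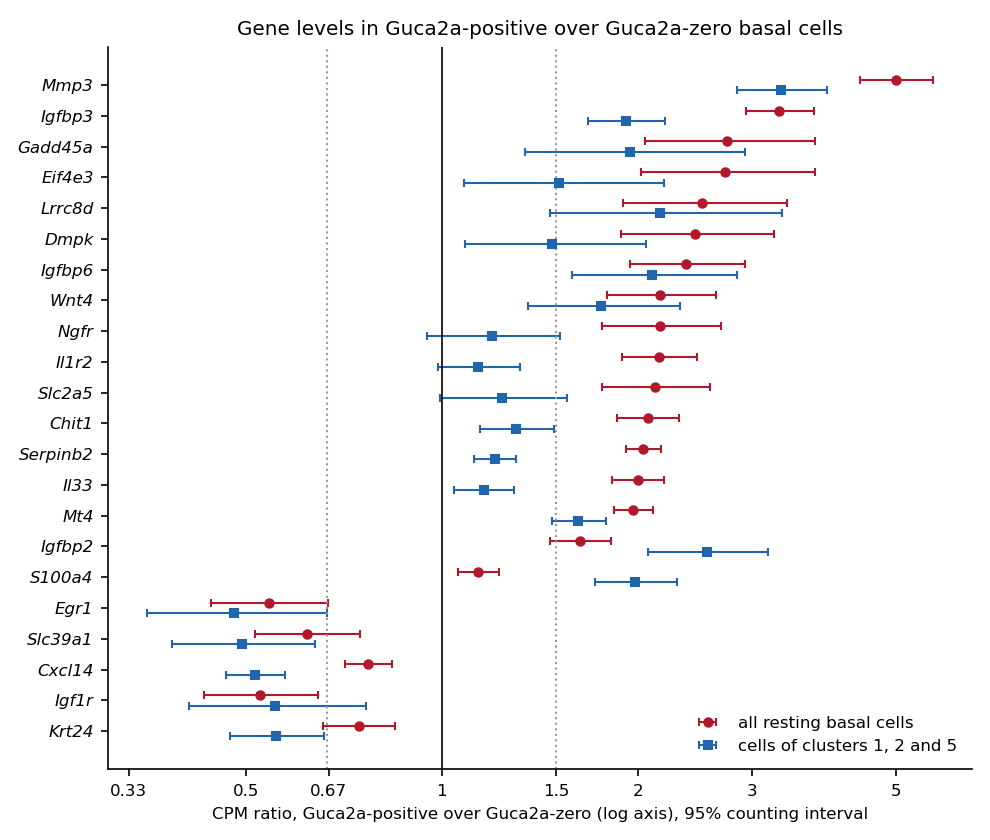
Ratio of CPM in Guca2a-positive over Guca2a-zero cells on a log axis with exact 95% counting intervals, over all resting basal cells (circles) and within clusters 1, 2 and 5 (squares). Dotted lines mark 1.5-fold either way. Mmp3, at 4.99 and 3.32, stands highest, while Ngfr, Il1r2, Slc2a5, Serpinb2 and Il33 lie inside the lines within the clusters.

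The lowest ratios belonged mainly to genes known from the hair follicle. The follicle stem cell transcription factor Lhx2 stood at 2.12 CPM in Guca2a-positive and 57.5 CPM in Guca2a-zero cells. The stem cell receptor Lgr5 stood at 1.27 and 24.99 CPM, Cd34 at 1.53 and 31.2 CPM, the activin antagonist Fst at 6.71 and 103 CPM, and Krt17 at 83.1 and 993 CPM. Shisa2, Aspn, Slpi, Tgm5, Pthlh, Serpinb11 and Tekt2 completed the 12 lowest ratios, at 0.97 to 3.39 CPM in Guca2a-positive cells. Within clusters 1, 2 and 5, Krt17 stood at 59.8 and 66.7 CPM, and the other 11 were below the minimum level in both groups. Of 37 keratinocyte transcription factors at level, 18 were lower and 0 higher over all cells, where 7.42% of all genes were lower and 2.19% higher. Among the 18 was Sox9, at 14.01 CPM in Guca2a-positive and 109 CPM in Guca2a-zero cells. Within the 3 clusters, 0 of 28 were called either way, near the 1.73% higher and 1.39% lower over all genes.

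Of 9 basal and activated keratins at level, 1 was higher and 7 lower over all cells, where 2.19% of all genes were higher and 7.42% lower. Within the clusters 0 of 7 were called. At the 1.73% higher and 1.39% lower over all genes there, few calls are due among 7. Krt14 had a ratio of 1.71 over all cells and 1.10 within the clusters. Krt15, a keratin of basal and follicle bulge cells, stood at 3814 CPM in Guca2a-positive and 7057 CPM in Guca2a-zero cells, and within the clusters at 3777 and 4661 CPM, a ratio of 0.81. The wound-associated keratins Krt6a and Krt16 stood at 33.5 and 24.9 CPM in Guca2a-positive cells, against 164 and 103 CPM in Guca2a-zero cells. Within the clusters they stood at 29.3 and 21.5 CPM, against 19.9 and 17.3 CPM. Reads of Krt6a may be split with its near-identical copy Krt6b.

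Inside the basal clusters a smaller set was lower with Guca2a. The chemokine Cxcl14 stood at 138 CPM in Guca2a-positive and 267 CPM in Guca2a-zero cells, a ratio of 0.516 (0.466 to 0.573), and at 185 and 304 CPM within cluster 1 alone. The growth factor response genes Egr1 and Dusp6 stood at 14.4 and 18.7 CPM in Guca2a-positive cells, against 30.1 and 35.3 CPM in Guca2a-zero cells. Btg2, an immediate early antiproliferative gene, had a ratio of 0.583. Within cluster 1 alone the ratios were 0.510 for Egr1, 0.449 for Dusp6, 0.604 for Btg2 and 0.516 for Igf1r. The alarmin Tslp stood at 27.9 and 44.9 CPM within the clusters, the chemokine Ccl20 at 15.8 and 26.9 CPM, the neurotrophin receptor Ntrk2 at 14.15 and 25.002 CPM, and the keratin Krt24 at 57.4 and 103 CPM. Slc39a1, a zinc importer, had a ratio of 0.492, and a log2 ratio of -0.09 among cells of 8000 to 12000 UMIs. With cells of 1 Guca2a UMI among the comparison cells, the log2 ratios were -0.57 for Btg2, -0.49 for Slc39a1, -0.48 for Igf1r and -0.44 for Krt24, all under 1.5-fold. Tslp, Ccl20 and Ntrk2 were not checked in this way, by depth or within cluster 1 alone. Of 6 chemokines at level within the clusters, 2 were lower and 0 higher, and of 17 immediate early genes, Gadd45a was higher and Egr1 and Btg2 lower. Over all genes there, 1.73% were higher and 1.39% lower.

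The genes of the guanylin pathway beyond Guca2a were all below the minimum level. The highest was Abcc4, an exporter of cyclic nucleotides, with 170 UMIs (6.34 CPM) in Guca2a-positive and 12 UMIs (3.12 CPM) in Guca2a-zero cells, a ratio of 2.03 (1.13 to 4.002), and 3.30 (1.11 to 16.2) within the 3 clusters. Npr1, a natriuretic peptide receptor that makes cyclic GMP, had 64 and 15 UMIs. The receptor Gucy2c had 2 UMIs in the 2317 Guca2a-positive cells and 1 UMI in the 508 Guca2a-zero cells. Uroguanylin (Guca2b), the neighbouring paralog, had 64 and 8 UMIs, which is 2.39 and 2.08 CPM. The cyclic GMP-dependent kinases Prkg1 and Prkg2 had 0 and 1 UMIs in Guca2a-positive cells, and the phosphodiesterase Pde5a 12. Besides Guca2a, 0 of the 15 guanylin and cyclic GMP genes on the list reached 20 CPM. Of 20 ion and water transport genes, 6 were at level and 0 were called either way in both comparisons. Over all genes 2.19% were higher and 7.42% lower, and 1.73% and 1.39% within the clusters, so few calls are due among 6.

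Calls in other lists are set beside the shares over all genes, which were 2.19% higher and 7.42% lower over all cells, and 1.73% higher and 1.39% lower within the clusters. At those shares few calls are due in a list of this size within the clusters. Of 17 cytokine and alarmin genes at level, Il33, Il1r2, Il1rn and Il20ra were higher and 5 were lower over all cells, whereas within the clusters 0 of 14 were higher and Tslp was lower. Of 23 metallothionein and antioxidant genes, Mt2 and Mt4 were higher and 8 lower over all cells, and within the clusters Mt4 was higher and 0 of 18 lower. Of 11 hemidesmosome and basement membrane genes, Itga3, the laminin-binding integrin subunit, was higher, at 25.9 and 14.1 CPM, and within the clusters 0 were called. Of 21 genes of cell cycle arrest and entry, Sfn (14-3-3 sigma) was higher and 2 lower over all cells, and 0 of 17 were called within the clusters. Of 21 early differentiation genes, 0 were higher and 5 lower over all cells, and of 18 within the clusters Lypd3 and Evpl were higher and 0 lower.

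Cells that the rule left out gave a further view of the same genes. Among dividing basal cells, which met the same limits but had more than 1 UMI of the division genes, 729 had at least 2 UMIs of Guca2a and 119 had none. Of 5119 genes, 167 (3.26%) were higher and 273 (5.33%) lower. The 52 genes higher here and in resting cells made up 48.1% of those called higher in resting cells and 31.1% of those in dividing cells, and the 97 lower in both 26.5% and 35.5%. Mmp3 stood at 394 CPM in dividing cells with Guca2a and 73.2 CPM in those without, a ratio of 5.38. Ratios were 3.89 for Igfbp3, 3.14 for Igfbp6, 3.01 for Ngfr, 2.62 for S100a4 and 2.07 for Wnt4, and 0.563 for Cxcl14. Lce1d and Lce1a1 had ratios of 14.005 and 10.3, with 95.04% and 92.8% of their UMIs in 7 of the 729 cells. Median depth was 16423 UMIs with Guca2a and 13485 UMIs without, and follicle-type cells were not removed from this comparison.

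Cells with at least 1% of UMIs on Krt10 have begun to differentiate. Of these, 1025 had at least 2 UMIs of Guca2a and 515 had none, with median depths of 18552 and 14887 UMIs. Of 4323 genes, 281 (6.50%) were higher and 295 (6.82%) lower. The 29 genes higher here and in resting cells were 26.9% of the resting and 10.3% of the Krt10-high calls, and the 68 lower ones 18.6% and 23.1%. Mmp3 stood at 141 CPM with Guca2a and 31.1 CPM without, a ratio of 4.53, and the ratios were 2.24 for Igfbp3, 3.47 for Il33 and 2.51 for S100a4. Chit1, at 320.1 and 328 CPM, and Cxcl14, at 27.6 and 22.4 CPM, passed 1.5-fold in neither direction. For Guca2a itself, a UMI at 3000 UMIs was found in 34.3% of Krt10-high cells, against 61.5% of resting basal cells. Over all its cells, the suprabasal-like cluster 4 had 399 CPM of Guca2a and 202 CPM of Mmp3. The suprabasal-like clusters 6, 7 and 11 had 135, 57.5 and 58.6 CPM of Guca2a, and 53.4, 30.7 and 32.1 CPM of Mmp3. The Krt10-high cells were not split by cluster or stage, and the part of that mix in these ratios was not tested.

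**Figure D3:**
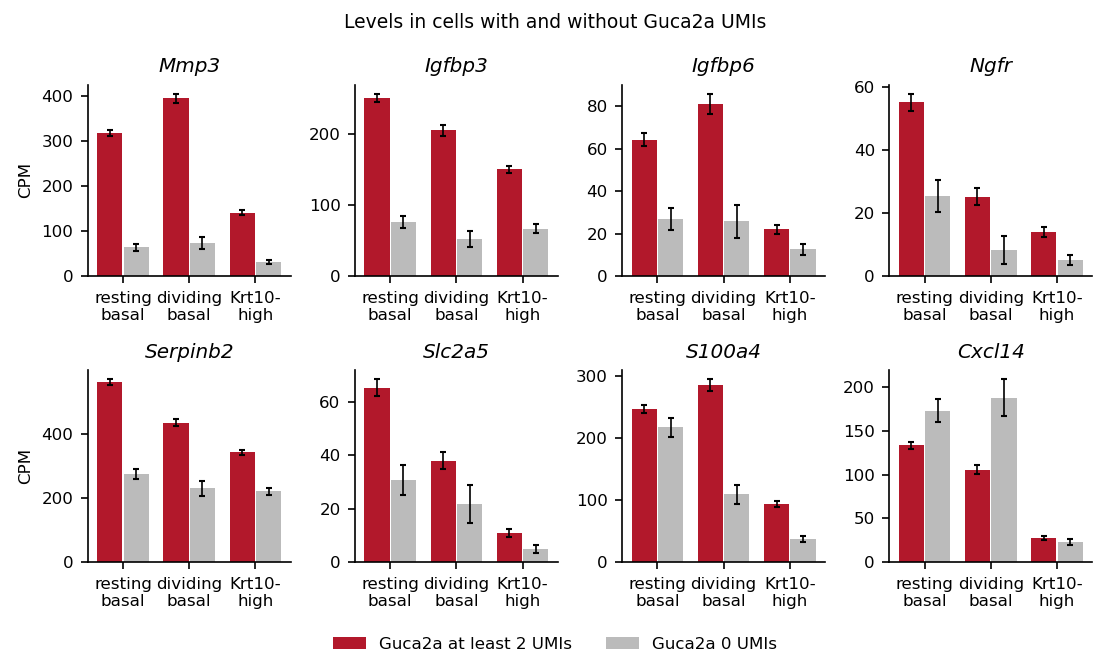
Level (CPM) of 8 genes in cells with at least 2 Guca2a UMIs (red) and with 0 (grey), among resting basal, dividing basal and Krt10-high cells of the Mus library. Bars are levels of summed UMIs and whiskers 95% Poisson counting intervals by the normal approximation. Mmp3 stands at 318, 394 and 141 CPM in the red bars and at 63.8, 73.2 and 31.1 CPM in the grey ones.

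Within the Guca2a-positive cells, several genes stood higher where Guca2a was higher. The cells were ranked by their Guca2a CPM and split into 4 bins of 579 or 580 cells, with median depths of 10804 to 11396 UMIs. Mmp3 stood at 154, 229.8, 299 and 591 CPM from the lowest to the highest bin, Igfbp3 at 154, 226, 265 and 363 CPM, Igfbp6 at 42.1, 55.9, 66.8 and 93.1 CPM and Lrrc8d at 20.3, 33.7, 37.3 and 45.2 CPM. Serpinb2 moved less, from 475 to 638 CPM, as did Slc2a5, from 57.0 to 76.2 CPM, and Ngfr, from 49.3 to 62.7 CPM. Cxcl14 stood at 151 CPM in the lowest and 109 CPM in the highest bin, and Egr1 at 22.4 and 13.9 CPM. Krt14 rose from bin to bin, at 25907, 27503, 28138 and 29669 CPM. The bins were not split by cluster. Guca2a-positive cells of cluster 2 had 832 CPM of Guca2a and 578 CPM of Mmp3, against 529 and 104 CPM in those of cluster 1. The part of the mix of clusters in these trends was not tested.

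**Figure D4:**
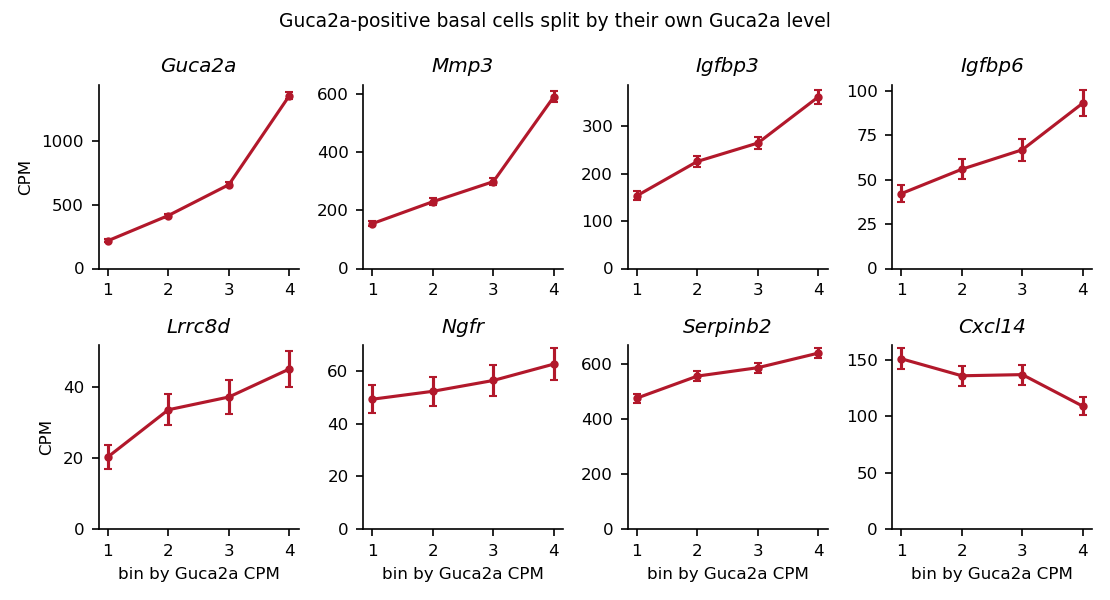
Level (CPM) of Guca2a, which defines the bins, and of 7 other genes in the Guca2a-positive cells ranked by their own Guca2a CPM and split into 4 bins (horizontal axis, 1 being the lowest). Points are levels of summed UMIs and whiskers 95% Poisson counting intervals by the normal approximation. Mmp3 runs from 154 to 591 CPM and Cxcl14 from 151 to 109 CPM.

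Levels were also read across Guca2a counts within clusters 1, 2 and 5. Cxcl14 stood at 267, 225, 194, 162 and 119.7 CPM in cells with 0, 1, 2, 3 to 4 and at least 5 UMIs of Guca2a, and Igfbp3 at 142, 162, 166, 219.6 and 307 CPM. Mmp3 was not steady at the low end, at 102, 141, 114, 211 and 420.5 CPM. Ngfr ranged between 44.6 and 60.2 CPM. Median depth climbed alongside, from 8755 to 11644 UMIs, and the mix of clusters differed too: cluster 1 held 141 of the 183 Guca2a-zero and 907 of the 2039 Guca2a-positive cells. The parts of depth and of this mix in these trends were not tested.

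The Guca2a-positive cells themselves lay mainly in 3 clusters, which are described here without a comparison because clustering used these genes. The 897 cells in cluster 2 had 832 CPM of Guca2a and 578 CPM of Mmp3, 104 CPM of Igfbp6, 17.5 CPM of the related protease Mmp10 and 9.48 CPM of Mmp13. The 907 cells in cluster 1 had 529 CPM of Guca2a, 104 CPM of Mmp3, 0.540 CPM of Mmp10, 5312 CPM of Krt15 and 185 CPM of Cxcl14. The 235 cells in cluster 5 had 588 CPM of Guca2a, 144 CPM of Mmp3, 353 CPM of Igfbp3, 1353 CPM of Mt4, 530.1 CPM of Krt1 and 2393 CPM of Krt15. Cells of the other 20 clusters numbered 278 and had 491 CPM of Guca2a, 245 CPM of Krt17 and 229.5 CPM of Lce1a1. Among these 278, 140 lay in cluster 3 and 20 in cluster 10, both like upper hair follicle. Another 19 lay in cluster 9, which was like follicle stem cells and outer root sheath, and 7 in the endothelium-like cluster 14. Ngfr stood between 46.5 and 62.1 CPM in the 3 main clusters and at 29.7 CPM in the rest. Simulated-doublet scores marked 143 of the 2317 Guca2a-positive cells (6.17%), 75 of them within the 3 clusters, and 12 of the 508 Guca2a-zero cells (2.36%).

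**Figure D5:**
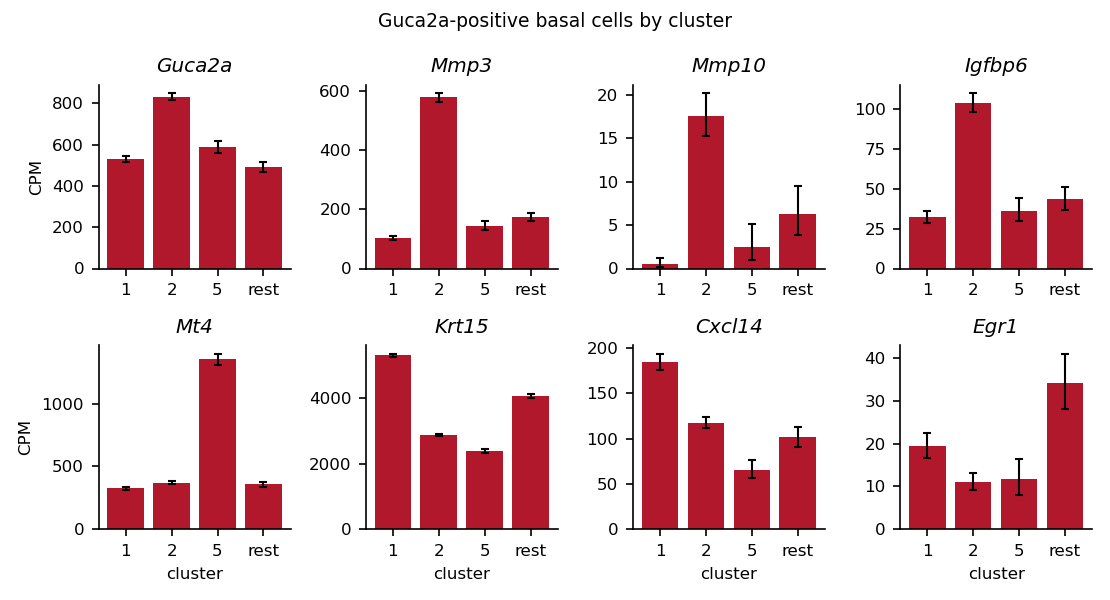
Level (CPM) of 8 genes in the Guca2a-positive basal cells of clusters 1, 2 and 5 and of the other clusters together (rest), with exact 95% Poisson counting intervals. Cluster 2 holds 578 CPM of Mmp3 and 104 CPM of Igfbp6, cluster 5 holds 1353 CPM of Mt4, and cluster 1 holds 5312 CPM of Krt15. The clusters were made from these data without Guca2a, so differences in the other genes are a description only.

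At the other edges of the rule, levels on the inside and outside are given as a description. Cells with 2 UMIs of Col17a1 had 587 CPM of Guca2a and 25758 CPM of Krt14 (280 cells), and otherwise matching cells with 1 UMI had 514 and 24725 CPM (171 cells). Cells with Krt10 between 0.5 and 1% of UMIs had 650.3 CPM of Guca2a, 27774 CPM of Krt14 and 603 CPM of Serpinb2 (223 cells). Those between 1 and 2% had 561, 13911 and 426 CPM (206 cells). Cells with 1 division UMI had 642 CPM of Guca2a and 340.2 CPM of Mmp3, and those with 2 had 623 and 473 CPM. The 20 shallowest members had 1188 CPM of Guca2a, and 32 cells just under the minimum depth had 3565 CPM, at a depth where 2 UMIs are a larger share of the cell.

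In the Acomys library, 1085 barcodes met the same limits on UMIs, genes, Col17a1, Krt10 and division genes, with no mitochondrial genes to filter on. They held 8116721 UMIs and 0 of Guca2a, which allows up to 0.370 CPM and a share of up to 0.276% of cells with a UMI. All Acomys barcodes past the limits held 2 UMIs of Guca2a. Acomys basal cells had 2.09 CPM of Mmp3, 80.5 CPM of Serpinb2, 302 CPM of Igfbp3 and 12.7 CPM of Wnt4. Species, animal, library and gene annotation cannot be told apart in these values.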

How the data were processed

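The Mus and Acomys libraries of ear skin were used as the authors deposited them: unnormalized UMI counts of each gene in all 737280 barcodes. The submitters' processing notes name Cell Ranger 2.2.0 and mm10 for both, and the Acomys list does not follow the mouse annotation. The Mus library held 130039670 UMIs and the Acomys library 71042559.

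Counts were summed over the cells of a group. Ratios of CPM carry exact conditional binomial 95% intervals, shares carry exact Clopper-Pearson intervals, and a count of 0 allows 3 counts. Log2 ratios under the alternatives added 0.5 CPM. With 1 library per species there is no replicate check. The 7 genes of the rule were left out of all calls. Mus barcodes were clustered with scanpy 1.11.5 without Guca2a: 2000 variable genes, 30 components, 20 neighbours, Leiden resolution 1, seed 1, giving 23 clusters. A cluster was called X-like from at least 3 detected markers. Doublets were scored by a simulated-doublet method and left in, except in an alternative that left out the top 466 barcodes. Python 3.11.15, numpy 2.4.6, pandas 2.3.3 and scipy 1.17.1 were used.

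Named genes were the 15 of highest and 12 of lowest ratio at the minimum level, ranked by the interval bound closer to 1, without mitochondrial, ribosomal and predicted genes, the given markers, and from each of 27 lists or marker sets the members of highest level and those past 1.5-fold. The genes named within the 3 clusters, the comparison there, the kinds of levels given by bin and cluster, and the guanylin pathway genes under the minimum level were chosen after the data were seen. The members and lists were chosen with earlier results of these data known. The alternatives were other limits on UMIs, mitochondrial share, Guca2a, Col17a1 and Krt10, doublet removal, depth weighting, means over cells, free RNA subtraction, another fold and another minimum level.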

Additional observations from a re-analysis of the deposited data

How the results depend on the processing

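Against 108 genes higher and 366 lower over all resting basal cells, a fold of 2 gave 25 and 197, a minimum of 5 CPM gave 246 and 1096, and comparison cells with 0 or 1 Guca2a UMI gave 43 and 227. Krt10 under 0.2% gave 179 higher. Counting Guca2a after thinning to 5000 UMIs, chosen after seeing the data, gave 37 and 194. The other alternatives stayed within 1.5 times the counts. The share of 70.9% moved to 74.7% with a minimum of 5000 UMIs, 59.4% with at least 3 Guca2a UMIs, 81.0% with at least 5 Col17a1 UMIs, 67.6% with Krt10 under 0.2% and 35.8% after thinning to 3000 UMIs. Within clusters 1, 2 and 5, against 81 higher and 65 lower, comparison cells with 0 or 1 UMI gave 21 and 17, subtracting 10% free RNA gave 126 and 105, and cells of 8000 to 12000 UMIs gave 101 lower. These alternatives were chosen after seeing the data.

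Of 149 single-gene ratios under 11 alternatives, 7 values changed sign: log2 0.058 for Fabp4 with a minimum of 5000 UMIs, 1.01 for Gpx8 with at least 5 Col17a1 UMIs, 0.18 for Ccl27a, 0.059 for Dkk3 and 0.17 for Gpx8 weighted to depth, and -2.54 for Lce1a1 and -1.93 for Lce1d after thinning. Size changed more often than sign, and the cause of neither was tested. A moved size with the same sign was marked for 110 of the 149 ratios with Guca2a counted after thinning. It was marked for 97 with at least 5 Col17a1 UMIs, 87 weighted to depth and 3 with the mitochondrial limit of 10%. With comparison cells of 0 or 1 Guca2a UMI, 108 moved, counting ratios over all cells and within the clusters together. Of 37 ratios within the clusters under 6 alternatives and 27 list medians, 0 changed sign. Small Guca2a-zero groups limit the precision, with 183 cells and 1559893 UMIs in the 3 clusters, 141 cells in cluster 1 and 119 among dividing cells. No paired analysis was possible because each species has 1 library and no result comes from a test across samples.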
